A study of Mus musculus with 3 samples.

Results

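Alternative promoters are separate transcription starts of 1 gene, and here they were read from first exons that lay far apart. First exons listed in the deposited transcript tables were taken per gene and strand, and a gene was kept when it had at least 2 of them with a mean of at least 1 FPKM (fragments scaled to transcript length and to library size) over the libraries and with 5′ ends at least 1000 bases apart. An exon absent from a library's table was given 0. This selected 994 of the 8218 genes that had a first exon of at least 1 FPKM (12.1%), and they held 2410 of 10373 such first exons. Another 636 genes had several first exons that all lay nearer than 1000 bases to each other, and 6588 had 1. Because FPKM levels and distances chose these genes, their levels and distances below are descriptions and carry no test.

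The 3 libraries, replicates 1 to 3, formed a single group: liver of C57BL/6 mice, an inbred strain, labelled as wild type, male and healthy, with no age given. Whether each replicate is another animal is not stated, and the spread between them may therefore be technical. Tumours were not analysed here and there was no contrast between groups. No read numbers accompany the FPKM, and the sequencing depth is unknown.

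The labelled tissue matched its markers. Of 8 hepatocyte markers 7 had a mean of at least 1 FPKM, with albumin (Alb) at 25367, 30592 and 27018 FPKM in replicates 1, 2 and 3. Ttr, also a hepatocyte gene, was listed at 0 in each library, so a gene's absence from these tables does not show that it was silent. All 5 markers each of Kupffer cells, sinusoidal endothelium and stellate cells also passed 1 FPKM, with summed levels of 84.1 to 131, 48.8 to 58.3 and 117 to 145 FPKM, so other liver cells contributed RNA. Of the cholangiocyte markers 2 of 5 passed, with summed levels of 33.9 to 79.2 FPKM, highest in replicate 1 and mostly from Spp1; 2 of 3 B cell markers (16.7 to 32.9 FPKM) and 1 of 3 T cell markers (2.60 to 3.50 FPKM) passed. In bulk tissue, fewer cells of a type and less RNA per cell cannot be told apart, and this applies to each promoter level below. The label of sex did not match: Xist, the RNA of the inactive X chromosome, reached 65.7, 53.9 and 46.4 FPKM, and nothing was listed within 4 genes of the Y chromosome (Ddx3y, Uty, Kdm5d and Eif2s3y) in any of the 3 libraries.

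A gene with several promoters can respond to different transcription factors from each of them. Promoters that lead into the same coding exons change the 5′ untranslated region and the control of the gene but leave the protein as it is, whereas a first exon with its own start codon changes the N-terminus. In liver this arrangement is known from metabolic and endocrine genes such as Srebf1, Nr1h4, Igf1 and Ugt1a1. CpG-rich promoters are typical of genes used in many tissues, and CpG-poor ones are more frequent among tissue-restricted genes.

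The sequences of 5 pairs are shown because their upstream and downstream promoters fell in different CpG classes. They are the 5 highest expressed such pairs among the genes named by rule, taken from RefSeq (GRCm38.p6). Each run gives the 100 bases before the start, 5′ to 3′ on the gene's strand, and capitals mark CpG dinucleotides. Ldha encodes lactate dehydrogenase A. Acsl1 encodes the main long-chain acyl-CoA synthetase of liver. Pygl encodes liver glycogen phosphorylase, Pcx pyruvate carboxylase and Srebf1 the lipogenic transcription factor SREBP-1.
Ldha upstream promoter, chr7:46845704-46845803, plus strand: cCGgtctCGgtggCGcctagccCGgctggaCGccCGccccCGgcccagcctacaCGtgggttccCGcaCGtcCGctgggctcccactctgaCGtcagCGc
Ldha downstream promoter, chr7:46846982-46847081, plus strand: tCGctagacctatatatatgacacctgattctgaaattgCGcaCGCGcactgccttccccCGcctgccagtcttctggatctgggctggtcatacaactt
Acsl1 upstream promoter, chr8:46470937-46471036, plus strand: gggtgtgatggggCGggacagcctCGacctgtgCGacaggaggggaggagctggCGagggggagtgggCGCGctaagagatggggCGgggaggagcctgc
Acsl1 downstream promoter, chr8:46490866-46490965, plus strand: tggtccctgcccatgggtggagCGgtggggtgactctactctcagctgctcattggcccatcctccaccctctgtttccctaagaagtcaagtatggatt
Pygl upstream promoter, chr12:70231511-70231610, minus strand: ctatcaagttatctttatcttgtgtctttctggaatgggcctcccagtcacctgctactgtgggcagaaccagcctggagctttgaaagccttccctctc
Pygl downstream promoter, chr12:70227684-70227783, minus strand: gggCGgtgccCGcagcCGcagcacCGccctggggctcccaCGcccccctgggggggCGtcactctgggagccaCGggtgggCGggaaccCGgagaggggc
Pcx upstream promoter, chr19:4510372-4510471, plus strand: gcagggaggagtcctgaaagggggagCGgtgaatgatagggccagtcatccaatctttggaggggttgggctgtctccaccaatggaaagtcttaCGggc
Pcx downstream promoter, chr19:4594219-4594318, plus strand: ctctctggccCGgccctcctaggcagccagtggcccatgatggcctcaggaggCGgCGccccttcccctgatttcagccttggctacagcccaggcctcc
Srebf1 upstream promoter, chr11:60220628-60220727, minus strand: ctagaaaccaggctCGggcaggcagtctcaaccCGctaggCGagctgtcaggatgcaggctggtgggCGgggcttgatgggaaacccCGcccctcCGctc
Srebf1 downstream promoter, chr11:60210472-60210571, minus strand: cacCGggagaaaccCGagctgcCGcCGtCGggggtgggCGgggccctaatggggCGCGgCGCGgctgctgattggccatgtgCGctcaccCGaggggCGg
In Ldha 13 CpGs stood before the upstream start and 5 before the downstream one. In Acsl1 these numbers were 7 and 1. Pcx had few in the printed stretch at either start (2 and 3), and its upstream promoter was classed CpG-rich over the full window of 300 bases described below. Pygl and Srebf1 had the reverse layout, with 0 against 9 and 6 against 13 CpGs, the downstream promoter being the CpG-rich one.

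First exons less than 1000 bases apart were then joined, starting from the highest, so that each gene had a leading promoter, a second promoter and sometimes more. Of the 994 genes 847 had 2 promoters, 145 had 3 or more, and 2 fell back to 1 after joining and were left out of what follows. Between the leading and the second promoter of the 992 genes lay a median of 12434 bases, and 556 pairs (56.0%) were more than 10000 bases apart. The upstream promoter was the leading one in 638 genes (64.3%). The leading promoter held a median of 71.6% of the summed FPKM of all promoters of its gene. A share not given by library uses the mean FPKM over the 3 libraries, and an SD beside it is that of the 3 shares by library.

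The name alternative promoter held for only part of these genes when their first exons were compared with GENCODE M21, a reference annotation of GRCm38. Both promoters belonged to complete protein-coding transcripts of the same gene in 270 genes (27.2%). Each other gene was counted once, in the class that came first in this order. In 193 (19.5%) a promoter of the pair was the first exon of another annotated gene, in 108 (10.9%) it matched no annotated exon, in 44 (4.44%) it matched an internal exon and in 81 (8.17%) it belonged to a gene model with an incomplete 5′ end. In the remaining 296 genes (29.8%) at least 1 of the pair started a noncoding transcript of that gene. Of all first exons of the 994 genes 54.4% began a complete coding transcript of the same gene, against 88.1% of the 7963 first exons of the other expressed genes. First exons of another gene made up 13.0% against 3.38%, and noncoding ones 17.5% against 4.17%. The selected first exons lay on the plus strand in 62.2% of cases, those of other genes in 52.4%, and annotated genes in 50.2%. Of all 22486 first exons with a gene identifier, at any level and with the selected ones included, 60.3% lay on the plus strand. Among first exons of at least 1 FPKM the skew lay mainly in the selected genes. Whether the strand skew bears on the selection was not tested.

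**Figure D1:**
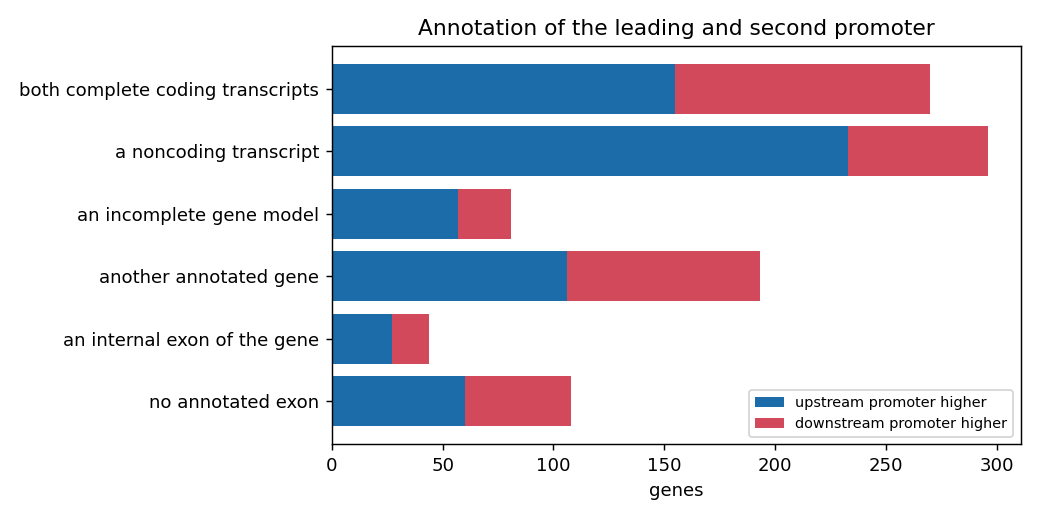
Number of genes (horizontal axis) in each annotation class of the leading and second promoter, each gene counted once, split by which of them had the higher mean FPKM. Blue is upstream higher and red downstream higher; pairs with a noncoding transcript have the upstream promoter higher in 233 of 296 genes, those with 2 complete coding transcripts in 155 of 270.

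The noncoding class had a distinct layout. The downstream first exon was noncoding in 287 of the 296 genes and the upstream one in 21, and a noncoding first exon was the leading promoter in 63. Of the 308 noncoding first exons in these pairs, 216 began transcripts annotated as retained introns and 81 processed transcripts. Rida, which encodes reactive intermediate deaminase, had 819, 733 and 389 FPKM from its upstream promoter and 1.28, 3.01 and 2.57 FPKM from a noncoding first exon 5455 bases downstream. Khk, which encodes ketohexokinase, the first enzyme of fructose use, had an upstream promoter at 154, 98.4 and 62.8 FPKM and a noncoding one at 7.48, 3.29 and 3.18 FPKM. In both genes each downstream value lay below all upstream values. Dbp, a clock-controlled transcription factor, had a larger downstream part, with 39.2, 33.7 and 22.8 FPKM beside 90.9, 35.7 and 87.1 FPKM upstream. In replicate 2 its levels nearly met, with 51.4% from the upstream promoter.

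Several of the highest expressed selected genes were neighbouring genes carried under 1 identifier, not alternative promoters of 1 gene. The locus listed as Tomm40, a mitochondrial import gene, had 2974, 4597 and 361 FPKM at a first exon annotated to Apoe, the apolipoprotein E gene beside it, and 13.2, 5.25 and 6.32 FPKM at its own. The locus listed as Nlrp6 contained the first exon of Cyp2e1, a cytochrome P450 of ethanol metabolism, at 1797, 2451 and 2444 FPKM. The locus listed as Serpina1e had 5 promoters, 4 of them first exons of its paralogues Serpina1a, Serpina1b, Serpina1c and Serpina1d, with means of 2589, 2004, 1786 and 1401 FPKM. Cyp3a11 and Cyp2c69, of drug-metabolising P450 families, likewise held the first exons of 4 and 3 neighbouring paralogues. Reads shared between near-identical copies make the split among paralogues uncertain.

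Ugt1a1 was in the same annotation class for another reason. The Ugt1a locus is known for separate first exons that each join 1 set of common exons and give bilirubin- and drug-conjugating enzymes with different substrate-binding parts, and the annotation lists each as its own gene. It had 6 promoters, more than most, on chromosome 1 from 88070800 to 88211959 (GRCm38, plus strand). The most downstream one, of Ugt1a1 itself, had 329, 404 and 446 FPKM and held 73.7% of the sum, with an SD of the share of 1.40 percentage points over n = 3 libraries. The first exon of Ugt1a9 followed at 57.4, 55.9 and 66.3 FPKM, then Ugt1a5 at 31.7, 43.1 and 39.3 and Ugt1a6b at 13.1, 19.999 and 22.4 FPKM. The first exon of Ugt1a2, at 14.7, 9.51 and 15.98 FPKM, overlapped with those of Ugt1a6b and of Ugt1a6a, the last at 10.7, 8.37 and 11.7 FPKM, and the values of Ugt1a6a lay below those of Ugt1a6b. The first 3 in this order did not overlap with each other.

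The 270 genes with 2 complete coding promoters are described in the rest of the text. Their promoters lay a median of 8097 bases apart, and in 120 genes (44.4%) more than 10000. The downstream start lay in an intron of the upstream transcript in 239 genes, and in its first intron in 174 (64.4%). The upstream promoter led in 155 genes (57.4%) and the downstream one in 115. The leading promoter held a median of 69.9%, and in 44 genes both promoters reached a mean of at least 10 FPKM. The widest spacing was 187644 bases in Upp2, a liver uridine phosphorylase chosen here after its values were seen, with 1.99, 0.960 and 1.02 FPKM upstream and 87.7, 35.4 and 151 FPKM downstream.

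Levels of single promoters varied strongly between libraries. In 70 of the 270 genes a promoter was listed at 0 in at least 1 library, and in 114 the order of the pair differed between libraries. Ldha illustrates this: its upstream promoter had 32.2, 392 and 81.3 FPKM and its downstream one 266, 0 and 247 FPKM. The sums of both differed far less than the parts, and the promoter with the higher level was not the same one in each library. Hsd17b6, a steroid and retinol dehydrogenase, behaved alike, with 73.4, 178 and 95.3 FPKM upstream and 148, 19.1 and 167 FPKM downstream. Proc, the anticoagulant protein C, had 191 and 205 FPKM downstream in replicates 1 and 2 and was listed at 0 in replicate 3, where its upstream promoter had 1.35 FPKM. Slc37a4, the glucose-6-phosphate transporter of the endoplasmic reticulum, had 3.15, 2.39 and 42.1 FPKM upstream and 39.5, 39.0 and 0.653 FPKM downstream. Replicate 3 thus had the reverse order of the other libraries, with the signal 1081 bases apart. Ncoa4, the receptor for autophagy of ferritin, showed the same in replicate 3, with 22.5, 25.2 and 2.56 FPKM upstream and 0, 0.683 and 22.7 FPKM downstream. In Lcp1, an actin-bundling protein of blood cells, replicate 1 stood apart, with 0.676, 18.1 and 19.4 FPKM upstream and 14.4, 0 and 0 FPKM downstream. Ccnd3, the cyclin D3 gene, had 15.5, 0.455 and 4.83 FPKM upstream and 0.0159, 14.6 and 0.0321 FPKM at a promoter 88385 bases downstream, where replicate 2 stood apart. No single library was the exception in all of these genes. Whether such zeros are failed transcript estimates was not tested, and shares that rest on them are given by library.

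When both promoters had to reach at least 1 FPKM in every library, 112 of the 270 genes remained. In 85 of them the order of the pair was the same in all 3 libraries, with the upstream promoter higher in 44 and the downstream one in 41. The median SD of the leading share was 9.74 percentage points. In 31 genes this SD was under 5 points, 16 with the upstream and 15 with the downstream promoter leading. Their leading shares ran from 51.8 to 98.1%.

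**Figure D2:**
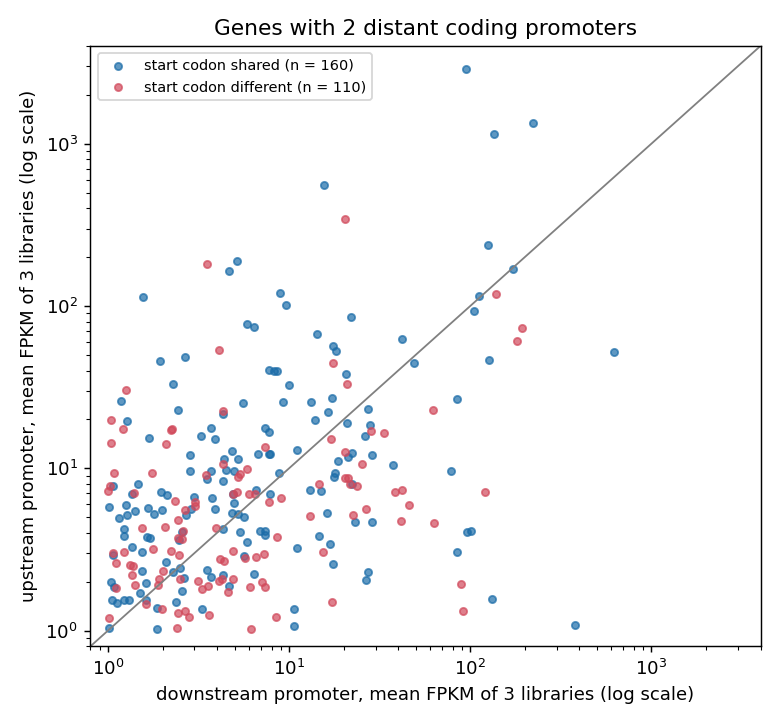
Mean FPKM over 3 libraries of the upstream promoter (vertical axis, log scale) against the downstream promoter (horizontal axis, log scale) for the 270 genes with 2 complete coding promoters. Blue points are the 160 genes with a shared start codon, red points the 110 with different ones, and the grey line marks equal levels; points of both colours lie on both sides of it.

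Start codons separated the 270 genes into 2 groups. In 160 genes (59.3%) the transcripts of both promoters had at least 1 annotated start codon in common. In 93 of these the coding length was equal too. The upstream coding sequence was longer in 44 of them and the downstream one in 23, so a shared start codon does not mean the same protein. In 110 genes (40.7%) the start codons differed. There the upstream transcript coded for the longer protein in 76 genes and the downstream one in 32, and the lengths differed by a median of 80.5 codons in either direction. The upstream promoter led in 63.1% of genes with a shared start and in 49.1% of those with different starts. Where a promoter had several annotated transcripts, the longest coding one gave its length.

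Among transcription factors with different start codons, Nr1h4 encodes the bile acid receptor FXR. Its upstream promoter (chromosome 10, minus strand, 89533585) had 12.8, 15.8 and 20.6 FPKM, and its downstream one (89506649), 26936 bases away, 33.8, 39.2 and 27.3 FPKM. The downstream promoter was higher in 3 of 3 libraries and held 67.1% ± 8.60 (SD, n = 3), with coding lengths of 474 codons from the upstream and 488 from the downstream start. Srebf1 had 8.59, 2.64 and 5.58 FPKM from its upstream promoter (chromosome 11, minus strand, 60220604) and 42.3, 23.9 and 13.2 FPKM from its downstream promoter (60210465). The downstream start, of the SREBP-1c form that is known to prevail in liver, was higher in every library. The longest coding sequence annotated with the downstream first exon has 1022 codons, and that with the upstream one 1134. Whether the first of these is the SREBP-1c form was not examined. Tef, a clock output factor, likewise favoured its downstream promoter, at 55.3, 28.7 and 41.5 FPKM beside 3.18, 1.34 and 17.4 FPKM upstream.

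Pparg and Rara, the nuclear receptors PPARγ and RARα, were low. The upstream promoter of Pparg, which gives the shorter form of 475 codons, had 2.93, 6.13 and 4.01 FPKM. The promoter of the longer form of 505 codons, best known from fat cells, lay 61115 bases downstream and had 4.23, 0 and 1.93 FPKM. Their levels overlapped, and the order differed in replicate 1. Rara had 2.91, 0.804 and 2.31 FPKM upstream and 2.75, 3.29 and 3.34 FPKM downstream, also with overlap.

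Xbp1, a factor of the unfolded protein response, had 44.8, 50.6 and 38.1 FPKM upstream and 17.9, 19.3 and 15.4 FPKM downstream. Its share was among the most even, at 71.7% ± 0.595 (SD, n = 3), although its spacing of 1004 bases was the nearest to the limit. Of the 75 transcription factor genes listed, 50 had a first exon of at least 1 FPKM, 12 were selected (24.0%, beside 12.1% of all genes) and 7 had 2 complete coding promoters (14%, beside 3.29% of all genes). Of 36 nuclear receptor genes, 28 were expressed at this level and 3 were selected (10.7%), the 3 named above. These lists and those below were drawn up with earlier results of these data known. Some genes, such as Tef, Srebf1 and the 3 nuclear receptors, are also on the list of genes known for alternative promoters described further below. The shares of these lists are therefore descriptions and no independent support.

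Enzymes of lipid and carbohydrate metabolism showed both layouts. Pemt, which makes phosphatidylcholine from phosphatidylethanolamine, had both promoters at high levels, with 149.8, 98.7 and 106 FPKM upstream and 138, 137 and 144 FPKM downstream (chromosome 11, minus strand, 60046481 and 60037005). The leading share was 54.1% ± 5.75 (SD, n = 3), the upstream promoter was higher in replicate 1 only, and the upstream transcript codes for 236 codons against 199. Acsl1 used both promoters too, 19929 bases apart and with the same 699 codons. Its upstream promoter had 114, 139 and 27.4 FPKM and its downstream one 17.7, 130.3 and 165 FPKM, so that the downstream share ran from 13.4 to 85.7%. The groups overlapped, and no order could be read from them.

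Pcx, the enzyme that feeds gluconeogenesis with oxaloacetate, had 60.7, 71.5 and 91.8 FPKM from its upstream promoter (chromosome 19, plus strand, 4510472) and 4.54, 8.49 and 6.22 FPKM from the one 83847 bases downstream. The upstream promoter held 92.1% ± 2.30 (SD, n = 3). Pygl was the opposite, with 88.0, 85.3 and 94.7 FPKM downstream and 0, 5.80 and 0 FPKM upstream. In both genes the leading promoter was higher in every library, and its levels did not overlap with those of the second one. H6pd, the endoplasmic reticulum hexose-6-phosphate dehydrogenase, was steady at lower levels, with 8.50, 7.40 and 7.43 FPKM upstream and 27.4, 24.98 and 18.8 FPKM downstream.

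Insig2, an anchor of the sterol-sensing machinery, is known for a liver-specific transcript. It had 2.38, 10.7 and 0.902 FPKM upstream and 27.2, 35.6 and 23.0 FPKM at a promoter 5847 bases downstream, with 1 coding sequence of 225 codons. The downstream promoter led in each library. Lpin2, a phosphatidate phosphatase, had 9.11, 6.69 and 8.07 FPKM upstream and 24.1, 17.9 and 23.3 FPKM downstream, a share of 73.2% ± 0.884 (SD, n = 3). There the leading, downstream transcript codes for 931 codons and the annotated upstream one for 459. Cd36, a fatty acid uptake receptor, favoured its upstream promoter at 39.2, 24.6 and 55.0 FPKM over 12.4, 1.84 and 11.6 FPKM. Of 109 expressed lipid genes 26 were selected (23.9%, beside 12.1% of all genes), 11 with 2 complete coding promoters (10.1%, beside 3.29%). Of 64 expressed carbohydrate genes 9 were selected (14.1%, near the 12.1% of all genes), 5 with such a pair (7.81%, beside 3.29%).

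Enzymes of amino acid and nucleoside metabolism differed in how even their pairs were. Gstz1, the maleylacetoacetate isomerase of tyrosine breakdown, had 68.4, 79.8 and 69.9 FPKM upstream and 173, 194 and 214 FPKM downstream (chromosome 12, plus strand, 87147718 and 87157608), a share of 72.7% ± 2.40 (SD, n = 3). Adk, the adenosine kinase, had 60.2, 52.4 and 71.0 FPKM upstream and 174, 187 and 180 FPKM downstream, 23564 bases away, a share of 74.7% ± 3.22 (SD, n = 3). In both, the downstream levels lay above all upstream ones. The annotated Adk transcripts have 361 codons from the upstream and 345 from the downstream start. Sardh, the sarcosine dehydrogenase of choline breakdown, was uneven: its leading downstream promoter held 0, 52.4 and 49.6% in replicates 1, 2 and 3. Mat2b, the regulatory subunit of methionine adenosyltransferase, was nearly balanced in each library, with 6.99, 6.90 and 6.91 FPKM upstream and 6.88, 6.25 and 6.24 FPKM downstream.

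**Figure D3:**
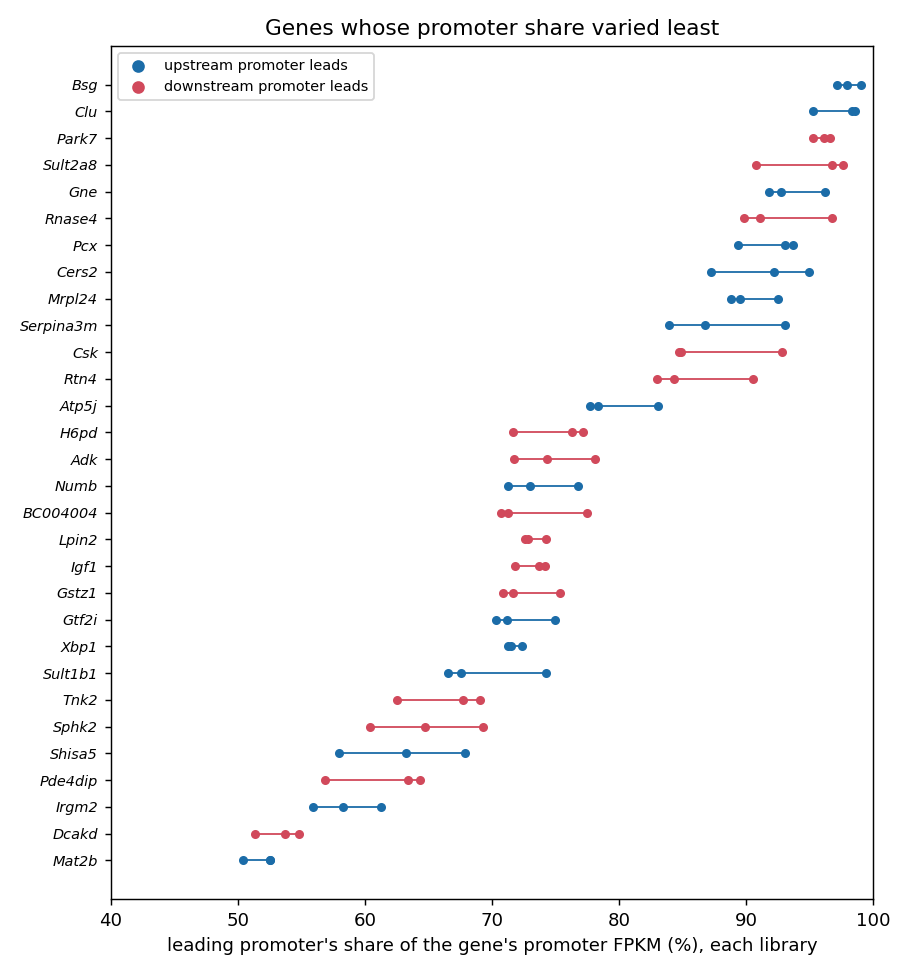
Share of the leading promoter in the summed promoter FPKM of its gene (horizontal axis, percent) in each of 3 libraries (points, joined by a line over their range). Shown are 30 of the 31 genes with both promoters at 1 FPKM or more in every library and an SD under 5 percentage points. The SD limit was chosen after the values were seen. Blue marks genes led by the upstream and red by the downstream promoter; the genes run from Mat2b at 51.8% to Bsg at 98.1%, with both colours throughout.

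Adk, H6pd, Lpin2, Mat2b, Rtn4, Bsg, Numb and Park7 were chosen after their values were seen, from the genes in that plot.

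Growth and signalling genes were led by either promoter. Igf1, the growth hormone-dependent growth factor, had 51.2, 50.2 and 37.5 FPKM at its upstream promoter (chromosome 10, plus strand, 87858265) and 131, 141 and 108 FPKM at the one 1765 bases downstream, a share of 73.2% ± 1.24 (SD, n = 3). The listed 5′ end of its upstream exon lay 1225 bases from the nearest annotated one, and the spacing rests on that listed end. Ghr, the growth hormone receptor, was nearly all upstream, with 90.04, 117 and 134 FPKM beside 1.15, 0 and 3.55 FPKM at a promoter 111586 bases downstream. For both genes the pairs did not overlap. Fgf1, a fibroblast growth factor, had 7.66, 30.1 and 12.6 FPKM downstream and 1.66, 0 and 8.60 FPKM upstream, with 1 coding sequence of 155 codons. Its highest upstream value exceeded its lowest downstream one.

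Lifr, a cytokine receptor chain, had 14.01, 28.7 and 10.3 FPKM upstream and 2.76, 16.4 and 2.98 FPKM downstream. Grb14, an inhibitor of insulin receptor signalling, had 24.7, 20.6 and 22.0 FPKM upstream and 1.69, 6.51 and 4.76 FPKM downstream, where the transcript codes for 221 codons in place of 538. The Grb14 promoters were separated in all libraries, and those of Lifr overlapped although the upstream one was higher within each library. Stk11, the kinase LKB1, had 16.6, 13.5 and 10.7 FPKM upstream and 16.8, 1.14 and 4.25 FPKM downstream. Dlc1, a tumour suppressor, had 0, 3.31 and 2.28 FPKM upstream and 6.49, 4.10 and 7.70 FPKM at a promoter 119111 bases downstream. Of 133 expressed signalling genes listed, 19 were selected (14.3%, near the 12.1% of all genes), 11 of them with 2 complete coding promoters (8.27%, beside 3.29%).

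Among membrane and secreted proteins, Rnase4, a secreted ribonuclease, was led by its downstream promoter, at 581, 561 and 713 FPKM beside 56.8, 18.9 and 80.9 FPKM. Selenop, the plasma selenium carrier, had 2930, 3042 and 2727 FPKM upstream, and its downstream promoter had 0.822, 5.82 and 277 FPKM, high in replicate 3 alone. Mgst1, a membrane glutathione transferase, had 1288, 1575 and 1184 FPKM upstream and 476, 41.1 and 152 FPKM downstream. Slc2a9, a urate transporter, had 9.46, 4.42 and 5.83 FPKM upstream, and its downstream promoter was near 0 in replicates 1 and 2 and at 11.3 FPKM in replicate 3. Of 103 expressed plasma protein genes 22 were selected (21.4%, beside 12.1% of all genes) and 6 had 2 complete coding promoters (5.83%, beside 3.29%), so that most of the 22 fell in the other annotation classes.

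Slc38a4, an amino acid transporter of hepatocytes, had 162, 154 and 248 FPKM upstream and 5.63, 9.62 and 0.140 FPKM at a promoter 10899 bases downstream. Of 162 expressed solute carrier genes 30 were selected (18.5%, beside 12.1% of all genes) and 12 had 2 complete coding promoters (7.41%, beside 3.29%). Rnf125, a ubiquitin ligase, was led by its downstream promoter, with 7.78, 7.12 and 11.1 FPKM upstream and 16.9, 23.5 and 20.5 FPKM downstream. The downstream transcript of Rnf125 codes for 233 codons and the upstream one for 140. Both genes had the same leading promoter in each library, without overlap.

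Some pairs led to annotated coding sequences of very different length. Rtn4, which encodes the Nogo proteins, has up to 1162 codons from its upstream start and 199 from the downstream one. The upstream promoter had 4.34, 3.64 and 6.31 FPKM and the downstream one 23.8, 38.9 and 61.1 FPKM. Bsg, the cell surface protein basigin, had 168, 187 and 189 FPKM upstream, with up to 389 codons, and 4.88, 3.89 and 1.77 FPKM 5107 bases downstream, with up to 218 codons. Rtn4 was led by its downstream promoter and Bsg by its upstream one in every library. The codon numbers are those of the longest annotated transcript, and which protein form was made was not measured. Numb, a regulator of Notch, had 5.12, 6.09 and 5.29 FPKM upstream and 1.55, 2.45 and 1.96 FPKM at a promoter 79591 bases downstream. Park7, which encodes DJ-1, had 5.52, 3.72 and 3.02 FPKM upstream and 138, 105 and 60.8 FPKM downstream.

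Genes known for alternative promoters were examined from a list of 51. Of these, 37 had a first exon of at least 1 FPKM, 21 were selected (56.8%, beside 12.1% of all genes) and 16 had 2 complete coding promoters. The list was drawn up with earlier results of these data known, so this share is no independent support. Of the 16, 6 were led by the upstream promoter and 11 had the same leading promoter in every library. The other 5 selected genes were Ugt1a1, Gpam, Gnas, Hlf and Acaca. Gnas, the stimulatory G protein α subunit, had 159, 142 and 148 FPKM from its upstream promoter and 3.93, 0.0810 and 1.12 FPKM from a noncoding one 14644 bases downstream. Acaca, the acetyl-CoA carboxylase of fat synthesis, had values under 10 FPKM at both, with its downstream promoter at 7.17, 0 and 0 FPKM.

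**Figure D4:**
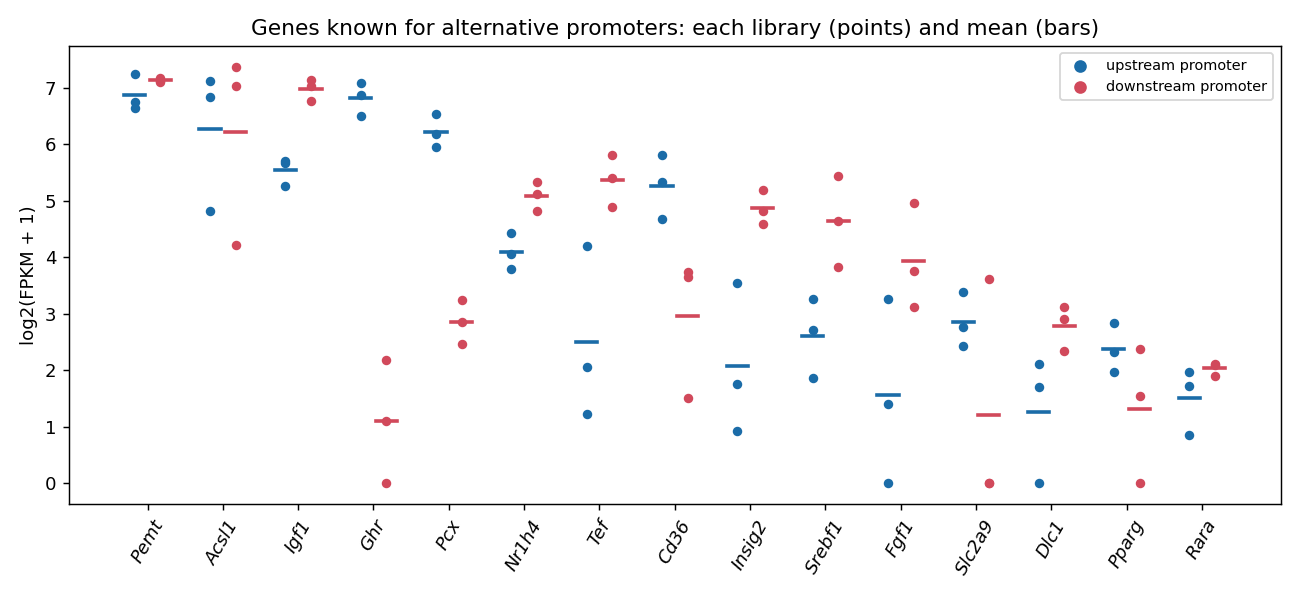
log2(FPKM + 1) of the upstream (blue) and downstream (red) promoter in each of 3 libraries (points) with the mean of the log2 values (bars) for 15 of the 16 genes known for alternative promoters that had 2 complete coding ones, ordered by summed FPKM. Pemt and Acsl1 show both promoters at similar means, Ghr and Pcx lie far higher upstream, and Tef, Insig2 and Srebf1 higher downstream.

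Several genes of the list had only 1 promoter with a mean of at least 1 FPKM. A second promoter that was not listed or stayed under this limit was not shown to be silent. Hnf4a, a master regulator of hepatocyte identity that has 2 promoters, had 58.7, 94.3 and 89.2 FPKM at 1 position (chromosome 2, 163547187), and no listed first exon lay 1000 bases or more from it. Hsd11b1, which regenerates active glucocorticoid, was listed with 1 first exon, at 214, 227 and 229 FPKM. Mlxipl, the carbohydrate-responsive factor ChREBP, had 85.2, 113 and 48.9 FPKM, and its first exon 17001 bases away had 0.632, 0.132 and 1.21 FPKM. That exon stayed under the limit on its mean of 0.659 FPKM. Abcg2 and Slc7a2 likewise had distant first exons with means under 1 FPKM, at 0.230 and 0.148.

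Near the limits, first exons of Clcn7, Iqsec1 and Zfp512b were just inside, at 1.0024, 1.0030 and 1.0033 FPKM, and those of Nudt6, Fbxw9 and Mib2 just outside, at 0.9990, 0.9970 and 0.9957 FPKM. By distance, Xbp1, Srsf2 and Akt1s1 were just inside, at 1004, 1008 and 1016 bases, and Tifa, Mapk3 and Elp5 just outside, at 999, 996 and 989 bases.

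Sequence around the starts, which the selection did not use, differed between upstream and downstream promoters. A RefSeq window of 250 bases before to 50 bases after a start was available within 50 bases of 244 of the 540 leading and second promoters of the 270 genes. A window was classed CpG-rich when its GC content was at least 50% and its CpG number at least 0.6 of that expected from its base composition. This held for 66.2% of 133 upstream and 31.5% of 111 downstream promoters, beside 73.7% of 4495 first exons of the other expressed genes and 33.5% of all 32851 RefSeq starts. Leading promoters were CpG-rich in 57.8% and second promoters in 41.3% of cases. The median observed-to-expected CpG ratio was 0.762 upstream and 0.383 downstream. No test was run, because the windows matched were not a sample of all promoters.

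**Figure D5:**
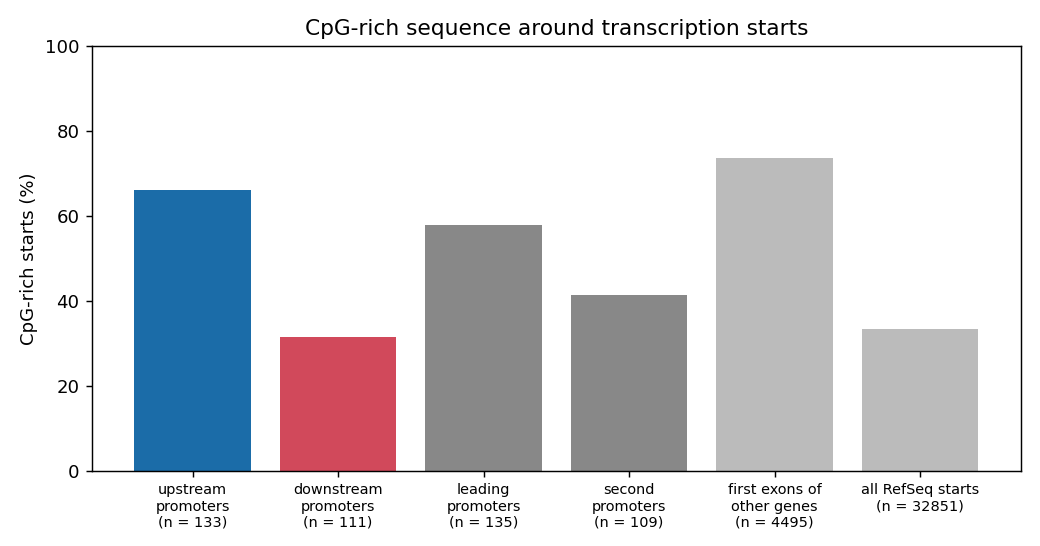
Percentage of transcription starts with a CpG-rich window of 300 bases (vertical axis), for upstream and downstream, and for leading and second, promoters of the 270 genes with 2 complete coding promoters, for first exons of the other expressed genes and for all RefSeq starts, with the number of windows under each bar. The upstream bar stands at 66.2% and the downstream bar at 31.5%.

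For 58 genes both windows were available. Both were CpG-rich in 9, the upstream one alone in 26, the downstream one alone in 4 and neither in 19. Of the 30 genes with different classes, the CpG-rich promoter was the leading one in 19. The sequences printed above include both kinds: in Pcx the CpG-rich upstream promoter led, and in Pygl and Srebf1 the CpG-rich downstream one. In Ldha and Acsl1 the order of the promoters differed between libraries. The Lpin2 pair, also steady across libraries, was CpG-rich upstream and led from its CpG-poor downstream start.

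Short motifs were searched on both strands of the 250 bases before these starts, except TATAAA, which was searched on the gene's strand between 40 and 20 bases before the start. TATAAA was found at 4 of the 244 promoters (1.64%) and at 1.32% of all first exons of at least 1 FPKM with a window. GTTAAT, a part of the site of the liver factor HNF1, occurred at 2 of 133 upstream (1.504%) and 11 of 111 downstream promoters (9.91%), beside 4.64% of all expressed starts. The genes with it downstream included Lpin2 and Rtn4. CACGTG, the E-box letters, occurred at 11.3% upstream and 3.60% downstream, beside 9.65%. GGGCGG, the letters of a GC box, was found at 68.4% and 41.4%, beside 60.6%, and CCAAT at 37.6% and 33.3%, beside 38.1%. CCGGAAGT, the letters of an ETS site, occurred at 4.51% and 1.80%, beside 6.67%. GCGCATGCG, of an NRF1 site, occurred at 0.752% and 1.80%, beside 3.43%, and CAAAGTCCA, of an HNF4A site, at none and 1 of these promoters. Matches of letters are descriptions and not evidence of binding.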

How the data were processed

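RNA was sequenced from 3 libraries of normal mouse liver. Per the submitters' processing notes, the genome build was mm9 and the tools were DESeq2, HTSeq 0.6.1, HISAT2 2.0.1 and cutadapt 1.9.1, without roles. For the tables themselves, the tool was not given in the sources used here. Exon positions matched GRCm38, and 83.4% of the other genes' and 78.8% of the selected genes' first exons had an annotated 5′ end exactly. The deposited values are FPKM, as named in the file headers, and each is the authors' estimate for a first exon. Identical rows (1440 to 1519 per library) were dropped, and absent exons were set to 0. First exons were assigned by the deposited gene identifier and strand, and classified by splice donor in GENCODE M21. Shares, distances and medians were computed in Python 3.11.15 with pandas 2.3.3 and NumPy 2.4.6, and the functions were tested on simulated data. Level plots use log2(FPKM + 1). With 1 group, no comparison was tested.

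The members and gene lists were chosen with earlier results of these data known, so the share of no list is independent support. Genes were named by rule: all selected genes of the list known for alternative promoters, the highest expressed, those nearest to equal shares, those with the most variable share, the most promoters or the largest distance, up to 4 per other list, and those at the limits. Not all genes this rule gives are printed, and exceptions are marked in the text. Results of further lists are given here, beside 12.1% of all expressed genes selected. Below that share were the ABC transporter (2 of 25 expressed genes, 8%), zinc finger (9 of 132, 6.82%) and ubiquitin (15 of 144, 10.4%) lists. Above it were the drug metabolism (20 of 118, 16.9%) and amino acid (11 of 74, 14.9%) lists. A few named genes and 1 list are not reported here. Alternatives varied the minimum level, the distance, the annotation filter, the joining of exons and the libraries used.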

Additional observations from a re-analysis of the deposited data

How the results depend on the processing

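The number of selected genes followed the minimum level. It was 1531 at 0.5 FPKM, 586 at 2 FPKM, 4098 with no minimum and 414 when each first exon had to reach 1 FPKM in every library, against 994. The upstream promoter was higher in 1045, 348 and 3128 genes at 0.5, 2 and no minimum, against 638, and the same promoter led in every library in 970, 360 and 2730, against 613. The median leading share was 74.98% at 0.5 FPKM and 88.3% with no minimum, against 71.6%. Among pairs of complete coding promoters, the upstream one was higher in 94 of 180 at 2 FPKM, against 155 of 270, an alternative added after the data were seen. With first exons annotated in the same gene only, the median distance was 10560.5 bases against 12434, and the same promoter led in every library in 405 of 666 genes, against 613 of 992. The median log2 ratio of upstream to downstream level, 0.68 with a pseudocount of 1 FPKM, was 1.08 with 0.1 FPKM and 1.17 with no minimum level. This ratio kept its sign in each alternative run for it. Among coding pairs the upstream promoter was higher in 207 of 368 at 0.5 FPKM. Without replicate 1, 2 or 3 it was higher in 136 of 259, 144 of 269 and 141 of 251. These runs were also added after the data were seen. The upstream promoter thus stayed the more frequent leader of coding pairs, by a smaller margin in each run than in 155 of 270. Of 61 values, 44 stayed within 1.5 times the reported count or within the SD between libraries. Merging first exons with the same splice donor changed none of its values, and these count among the 44. Leaving out 1 library gave 955 to 986 selected genes and 251 to 269 coding pairs. No paired analysis was possible because all libraries belong to 1 group. The CpG class in a longer window was not run, since only the RefSeq windows were used here. Depth is unknown, so the counting error of levels near 1 FPKM could not be given.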
